A study of Mus musculus with 24 samples.

Results

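The comparison described here sets 1,25-dihydroxyvitamin D3 (written 1,25D) against vehicle in the duodenum of mice on a normal diet. It uses 12 of the 24 RNA sequencing libraries of the study, chosen by their titles: 6 libraries from mice given 1,25D and 6 from mice given vehicle. Every mouse of the study was a male without a working Cyp27b1 gene, the enzyme that makes 1,25D from its precursor, so the vehicle mice lacked their own hormone too. After weaning at 3 weeks the mice ate a vitamin D-deficient diet with 0.47% calcium and 0.3% phosphorus. At 8 weeks they were injected intraperitoneally with 2 ng of 1,25D per g of body weight or with vehicle, and the duodenum was taken 6 h later. The other 12 libraries came from mice of the same genotype, injected in the same way, on a rescue diet with 2% calcium, 1.25% phosphorus and 20% lactose. They enter the fit of the spread and the comparison of the diets. The labels speak of 12 mice per diet and of 8 injected mice per group, and they do not tie the 6 libraries of a group to mice. The p-values therefore rest on the spread among libraries, part of which may be technical. No wild-type library is analysed here.

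1,25D acts by binding the vitamin D receptor, a nuclear receptor that pairs with a retinoid X receptor on DNA and changes the transcription of nearby genes. In the duodenum its best known task is the uptake of dietary calcium through the enterocyte: a channel in the brush border lets calcium in, a small buffer protein carries it across the cell, and a pump on the basolateral side pushes it into the blood. The hormone also limits itself, because its receptor switches on the enzyme that degrades it.

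Values are RPKM (reads scaled to gene length and library size), and 3 values in a row are the lowest, the median and the highest of 6 libraries. Summed RPKM ran from 555753 to 623902 per library, and relative depth, estimated from the steps between low values, from 0.708 to 1.55, while absolute depth is unknown. Cyp27b1 itself lay at 0, 0.072 and 0.163 RPKM after 1,25D and at 0, 0.261 and 0.452 RPKM after vehicle. It did not pass the filter on low values, and without a wild type these levels do not check the label. The tissue label was met by its markers. Pdx1, a transcription factor of the duodenum and pancreas, and Gip, a hormone of the upper gut, were at 15.4 RPKM or more in each of the 12 libraries. Fabp6, a marker of the ileum, was listed at 0 in 4 of 6 libraries of either group and reached at most 0.268 RPKM. Genes of the exocrine pancreas, which lies against the duodenum, were present in unequal amounts. They took 0.521% to 4.17% of summed RPKM after 1,25D and 0.8% to 18.3% after vehicle. Vehicle replicate 6 had the 18.3% and stood apart from the other 11 libraries on the second principal component, and vehicle replicate 3 had 6.18%. The part of this difference in the results was not tested. Total counts of calls are given below with and without those libraries. Counts for some lists are given without vehicle replicate 6 and with a pancreas score as covariate. The score was the mean log2(RPKM + 0.5) of the exocrine pancreas markers in a library.

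In all, 368 of 20006 tested genes were called at an adjusted p under 0.05, 1.84% of them, and the calls were 357 higher (1.78%) and 11 lower (0.055%) after 1,25D. The middle called rise was 0.87 on the log2 scale, against a median of 0.049 over all genes tested. Of the 357 genes, 133 rose 2-fold or more, 17 by more than 2 on the log2 scale, and 10 by more than 3. In 267 of the 357, every 1,25D library lay above every vehicle library; over all tested genes this was so for 427 (2.13%), and the reverse for 17 (0.085%). The surplus of rises depends on the scaling: quantile normalization gave 231 higher and 93 lower, median-of-ratios scaling 208 and 68, and weighting libraries by their fit 376 and 99. Without vehicle replicate 6 the counts were 279 higher and 117 lower, and without vehicle replicates 3 and 6 they were 314 and 311. With pancreas genes removed and the libraries rescaled they were 220 and 42. A fit with the pancreas score as a covariate called 127 higher and 10 lower. The genes of that score were lower after 1,25D (list median -3.30 on the log2 scale). The score thus partly follows the injection, and that fit cannot tell them apart. Counts of called members in the gene lists below stand beside 1.78% of all tested genes called higher and 0.055% called lower. Without adjustment, 2393 of the 20006 tested genes had a p under 0.05 by limma, in either direction.

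Single libraries weighed on the number of calls as well. Higher calls fell to 195 without 1,25D replicate 3, 224 without 1,25D replicate 4, 234 without 1,25D replicate 6 and 231 without vehicle replicate 1, and reached at most 398, without vehicle replicate 5. Lower calls numbered 2 without vehicle replicate 1 or 1,25D replicate 6, and 4 to 7 without vehicle replicate 2 or 1,25D replicates 3, 4 or 5. They numbered 16 to 23 without vehicle replicates 3 or 4 or 1,25D replicates 1 or 2. Each result was therefore followed through 25 alternatives: 12 fits that each left out 1 of the 12 libraries, and 13 other settings of filter, pseudocount, scaling, weights, block and covariate. A call that passed in the same direction in all 25 is said below to hold throughout. This was so for 116 of the 357 rises and for 2 of the 11 falls; 176 rises and 2 falls passed in the 12 fits alone.

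Cyp24a1, whose hydroxylase inactivates 1,25D, showed the largest rise of all genes tested. It had 509, 643 and 1036 RPKM after 1,25D, against 0.131, 0.557 and 4.03 RPKM after vehicle (log2 fold change 9.14, SE 0.44, adjusted p = 5.72e-13), a 563-fold difference of the fitted means, and the lowest 1,25D library stood far above the highest vehicle library. In contrast Vdr, the receptor, had 43.9, 65.3 and 96.4 RPKM after 1,25D, against 34.7, 68.2 and 93.1 RPKM after vehicle, with overlapping groups (log2 fold change 0.14, SE 0.25, adjusted p = 0.958). The sign of that change turned under quantile normalization, at -0.037. Of the 17 tested members of the list of vitamin D metabolism, receptor and coregulators, Cyp24a1 alone was called, 1 higher and 0 lower (median log2 fold change 0.083, -0.092 to 0.17 over the alternatives). Rxra, the partner of the receptor on DNA, had 20.5, 21.8 and 22.6 RPKM after 1,25D, against 14.2, 21.3 and 26.9 RPKM after vehicle, again with overlap (adjusted p = 0.987). Cubn, the endocytic receptor cubilin, had 2.29, 5.15 and 10.1 RPKM after 1,25D, against 0.395, 1.1 and 3.18 RPKM after vehicle but did not pass the test (log2 fold change 1.63, SE 0.52, adjusted p = 0.124). Cyp27a1, which can hydroxylate vitamin D at carbon 25, did not pass (log2 0.49, SE 0.45, adjusted p = 0.819). The coactivators Ncoa1 (log2 -0.18, SE 0.16, adjusted p = 0.821) and Ncoa3 (log2 0.12, SE 0.13, adjusted p = 0.879) did not pass either.

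The steps of the calcium route rose together. Trpv6, which lets calcium in through the brush border, had 2.42, 6.46 and 13.4 RPKM after 1,25D, against 0.064, 0.266 and 0.612 RPKM after vehicle (log2 fold change 3.13, SE 0.45, adjusted p = 0.00023, 8.74-fold). S100g, the cytosolic calcium carrier calbindin-D9k, had 1733, 1942 and 2919 RPKM after 1,25D, against 13.6, 142 and 774 RPKM after vehicle (log2 fold change 3.83, SE 0.60, adjusted p = 0.000567, 14.3-fold). The vehicle libraries of S100g spread most, from 13.6 RPKM in replicate 1 to 774 RPKM in replicate 3, and the whole 1,25D group still lay above them. Atp2b1, which pumps calcium out of the cell at its basolateral side, had 248, 299.6 and 363 RPKM after 1,25D, against 51.5, 72 and 131 RPKM after vehicle (log2 fold change 1.99, SE 0.22, adjusted p = 8.65e-06, 3.96-fold). For these 3 genes the groups did not overlap and the calls held throughout. Calm2, a gene for calmodulin, the calcium sensor that binds the pump, had 166, 197 and 289 RPKM after 1,25D, against 110.1, 147 and 159 RPKM after vehicle (log2 fold change 0.56, SE 0.14, adjusted p = 0.0351). The call of Calm2 was lost without 1,25D replicate 3, 4 or 6, or vehicle replicate 1, 2 or 6 (adjusted p 0.0539 to 0.111), and it held in 5 of the 13 other settings. Of 17 tested members of the calcium list of 20 genes, these 4 rose and 0 fell (median log2 fold change 0.23, 0.076 to 0.28 over the alternatives). The kidney type members stayed low: Trpv5 had 0.131, 0.33 and 0.535 RPKM after 1,25D, against 0.126, 0.362 and 0.995 RPKM after vehicle, and Calb1, the larger calbindin, had 0.579, 1.8 and 2.16 RPKM after 1,25D, against 0.423, 1.36 and 2.45 RPKM after vehicle.

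**Figure D1:**
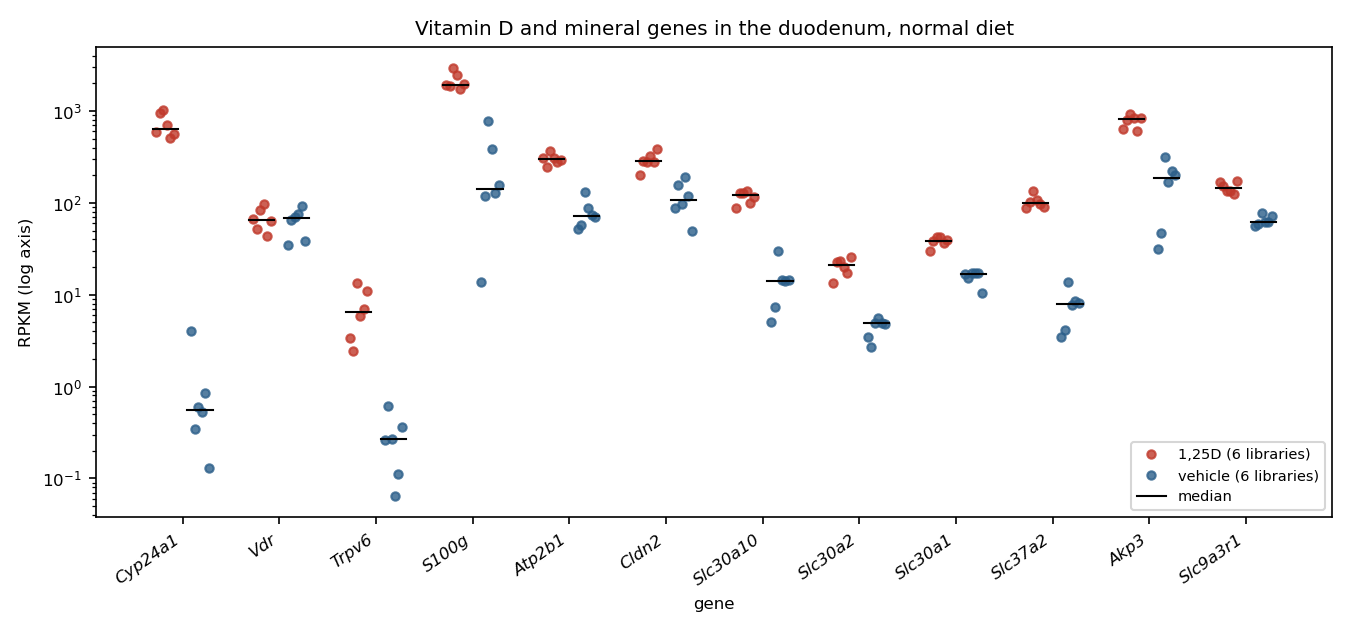
RPKM on a log axis of 12 vitamin D and mineral genes in each of the 6 libraries after 1,25D (red, left of each pair) and the 6 after vehicle (blue, right), with black bars at the medians. The groups are apart for every gene drawn except Vdr, where medians of 65.3 RPKM after 1,25D and 68.2 RPKM after vehicle lie side by side, and S100g has the widest vehicle group, from 13.6 to 774 RPKM.

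The promoters of the channel and of the carrier are shown because both genes rose most steeply among the calcium genes and because the vitamin D receptor is known to bind pairs of the hexamer AGGTCA or its variants, spaced by 3 bases. Each window runs from 250 bases before to 50 bases after the start site in RefSeq (build GRCm38.p6, another build than the mm9 used for the deposited values), and is written 5′ to 3′ on the strand of the gene. Capitals mark AGGTCA and its reverse complement TGACCT.
Trpv6 (chr6:41636356-41636655, minus strand): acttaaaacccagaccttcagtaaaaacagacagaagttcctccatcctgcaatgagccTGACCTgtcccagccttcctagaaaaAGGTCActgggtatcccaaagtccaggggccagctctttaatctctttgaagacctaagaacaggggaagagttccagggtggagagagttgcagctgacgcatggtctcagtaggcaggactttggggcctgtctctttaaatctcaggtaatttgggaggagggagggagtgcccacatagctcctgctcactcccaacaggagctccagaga
S100g (chrX:162964550-162964849, minus strand): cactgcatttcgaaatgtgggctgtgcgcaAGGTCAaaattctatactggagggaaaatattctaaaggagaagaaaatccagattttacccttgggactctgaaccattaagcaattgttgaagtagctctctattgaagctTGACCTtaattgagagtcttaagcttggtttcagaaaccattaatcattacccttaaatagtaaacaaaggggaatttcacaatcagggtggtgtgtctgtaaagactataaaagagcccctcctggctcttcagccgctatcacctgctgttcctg
Both windows held 1 AGGTCA and 1 TGACCT. Either word was found in 16.3% of 32851 promoter windows. Of the 357 genes that rose, 236 had a window and 38 of these held it (16.1%), against 1945 of the 12551 tested genes with a window (15.5%). A direct repeat of 2 AGGTCA hexamers with 3 bases between them (AGGTCANNNAGGTCA, both strands) occurred in 2 of the 32851 windows and in 0 of the 236. The direct repeat of the degenerate hexamer occurred in 84 windows (0.256%) and in 1 of the 236. A match describes letters in these windows only, and more distant sites are outside them.

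Along the path between the cells, Cldn2, the claudin that forms a pore for cations such as calcium, had 202, 283 and 384 RPKM after 1,25D, against 48.9, 108 and 191 RPKM after vehicle (log2 fold change 1.42, SE 0.25, adjusted p = 0.00179). The groups did not overlap and the call held throughout. Cdh17, the cadherin of the intestinal lateral membrane, had 449, 547 and 579 RPKM after 1,25D, against 188, 277 and 388 RPKM after vehicle (log2 fold change 0.94, SE 0.19, adjusted p = 0.00758). Cgn, the tight junction plaque protein cingulin, had 30.8, 33.5 and 36.8 RPKM after 1,25D, against 17.1, 24.4 and 30.2 RPKM after vehicle (log2 fold change 0.46, SE 0.12, adjusted p = 0.0477). Cldn15, another cation pore of the small intestine, had 90.3, 97.2 and 102 RPKM after 1,25D, against 45.1, 69.6 and 88.9 RPKM after vehicle and did not pass the test (log2 fold change 0.50, SE 0.16, adjusted p = 0.12). Of 24 tested junction genes, 3 rose and 0 fell, and the list as a whole was centred near 0 (median log2 fold change -0.051, -0.15 to 0.01 over the alternatives). Cdh17 passed in each of the 25 alternatives except the pancreas covariate. The Cgn call was lost without 1,25D replicate 1, 2, 3, 4, 5 or 6, or vehicle replicate 1, 3, 4 or 6 (adjusted p 0.0609 to 0.118), and held in 4 of the 13 other settings.

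Among metal genes, transporters of zinc and manganese had 6 of 25 tested members higher and 0 lower, although the list as a whole was centred near 0 (median log2 fold change 0.087, 0.0022 to 0.15 over the alternatives). Slc30a10, which exports manganese, had 88.5, 121 and 135 RPKM after 1,25D, against 5.01, 14.2 and 30.1 RPKM after vehicle (log2 fold change 3.17, SE 0.36, adjusted p = 9.68e-06, 9.01-fold). Slc30a2, which moves zinc into vesicles, had 13.3, 21.3 and 25.8 RPKM after 1,25D, against 2.67, 4.89 and 5.52 RPKM after vehicle (log2 fold change 2.10, SE 0.31, adjusted p = 0.000259). Slc30a1, the zinc exporter of the plasma membrane, had 30.3, 38.9 and 42.5 RPKM after 1,25D, against 10.4, 16.9 and 17.4 RPKM after vehicle (log2 fold change 1.27, SE 0.15, adjusted p = 1.37e-05). Each 1,25D library exceeded each vehicle library for these 3 genes, and the calls held throughout, as did that of Slc30a5, which loads zinc into the secretory pathway (log2 0.75, SE 0.13, adjusted p = 0.00154). Slc30a9, a zinc transporter of mitochondria, rose by a smaller amount (log2 0.50, SE 0.11, adjusted p = 0.0104), in the 12 fits but not with the replicate block, with the pancreas covariate or in a fit of the 12 libraries alone. Slc39a4, which brings dietary zinc into the enterocyte, had 21.5, 29.8 and 44.6 RPKM after 1,25D, against 8.09, 13.3 and 21.5 RPKM after vehicle with overlapping groups (log2 fold change 1.24, SE 0.32, adjusted p = 0.0442). Its call was lost without 1,25D replicate 2, 3, 4, 5 or 6, or vehicle replicate 1, 2, 4, 5 or 6 (adjusted p 0.0521 to 0.119), and held in 6 of the 13 other settings.

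Among 24 tested genes of iron and copper handling, 3 rose and 0 fell (median log2 fold change 0.27, 0.12 to 0.33 over the alternatives). Heph, the ferroxidase hephaestin that works with the iron exporter, had 127, 171 and 199.9 RPKM after 1,25D, against 43.4, 66.4 and 105 RPKM after vehicle (log2 fold change 1.31, SE 0.28, adjusted p = 0.0123), with no overlap, and was called in each alternative except the pancreas covariate. The iron regulatory proteins Ireb2 (log2 0.79, SE 0.18, adjusted p = 0.0158) and Aco1 (log2 0.41, SE 0.11, adjusted p = 0.0437), which bind ferritin and transferrin receptor messages, rose less. Ncoa4, the receptor that delivers ferritin to the lysosome, had 246, 329 and 400.4 RPKM after 1,25D, against 36.5, 109 and 216 RPKM after vehicle (log2 fold change 1.73, SE 0.40, adjusted p = 0.0223). The iron exporter itself, Slc40a1, had 261, 349.9 and 417 RPKM after 1,25D, against 104, 168 and 326 RPKM after vehicle and did not pass the test (log2 fold change 0.92, SE 0.29, adjusted p = 0.11), and neither did the ferritin heavy chain Fth1 (log2 0.73, SE 0.23, adjusted p = 0.119). Calls were lost for Ireb2 without 1,25D replicate 3 or 4, or vehicle replicate 1 (adjusted p 0.0508 to 0.0522) and Aco1 without 1,25D replicate 1, 2, 3, 4, 5 or 6, or vehicle replicate 1, 2, 3 or 6 (adjusted p 0.0578 to 0.112). The same holds for Ncoa4 without 1,25D replicate 3, 4 or 6, or vehicle replicate 1 or 2 (adjusted p 0.0522 to 0.0715).

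Transporters of magnesium, sodium, chloride, bicarbonate and water gave 2 higher (6.45%, beside 1.78% of all tested genes) and 1 lower of 31 tested (median log2 fold change 0.27, 0.067 to 0.32 over the alternatives). Cnnm2, a magnesium transport protein, had 2.66, 4.33 and 5.46 RPKM after 1,25D, against 1.66, 1.92 and 2.29 RPKM after vehicle (log2 fold change 0.93, SE 0.22, adjusted p = 0.0243). Aqp11, an intracellular aquaporin, had 13.1, 16.5 and 20.3 RPKM after 1,25D, against 7.13, 8.23 and 13.1 RPKM after vehicle (log2 fold change 0.77, SE 0.20, adjusted p = 0.0454). The groups did not overlap for either gene, and the calls were lost for Cnnm2 without 1,25D replicate 2 or 3, or vehicle replicate 2 (adjusted p 0.0597 to 0.0806) and Aqp11 without 1,25D replicate 2, 3, 4, 5 or 6, or vehicle replicate 1, 2, 3 or 6 (adjusted p 0.06 to 0.114). Aqp4, a water channel of the basolateral membrane, was the member that fell and is described with the other falls.

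Phosphate handling was represented by 5 rises and 0 falls among 15 tested genes (median log2 fold change 0.52, 0.34 to 0.57 over the alternatives). Slc37a2, which exchanges sugar phosphate for phosphate, had 88.1, 99.3 and 135 RPKM after 1,25D, against 3.48, 7.83 and 13.8 RPKM after vehicle (log2 fold change 3.80, SE 0.30, adjusted p = 1.83e-08, 13.9-fold), after Cyp24a1 the smallest adjusted p of all genes named here. The intestinal alkaline phosphatases Akp3, the duodenal form, and Alpi free phosphate at the brush border. Akp3 had 613, 821 and 924 RPKM after 1,25D, against 31.8, 186 and 313 RPKM after vehicle (log2 fold change 2.63, SE 0.48, adjusted p = 0.00226). Alpi had 351, 497 and 558 RPKM after 1,25D, against 69.6, 176 and 268 RPKM after vehicle (log2 fold change 1.62, SE 0.32, adjusted p = 0.00535). The scaffold Slc9a3r1, which anchors transporters under the brush border, had 126, 145 and 174 RPKM after 1,25D, against 56.2, 62.3 and 77.7 RPKM after vehicle (log2 fold change 1.20, SE 0.22, adjusted p = 0.00318). The groups of these 4 genes did not overlap, and the calls held throughout. A second scaffold, Pdzk1, had 29.9, 39.1 and 56.3 RPKM after 1,25D, against 11.4, 19.9 and 25.2 RPKM after vehicle (log2 fold change 1.08, SE 0.27, adjusted p = 0.0338), a call lost without 1,25D replicate 2, 3, 4 or 6, or vehicle replicate 1 or 2 (adjusted p 0.0643 to 0.0961). The sodium phosphate cotransporter of the brush border, Slc34a2, was barely detected in either group, at 0.041, 0.158 and 0.248 RPKM after 1,25D, against 0.011, 0.107 and 0.262 RPKM after vehicle, and was not tested. Slc20a1, another phosphate importer, had 30.4, 33.7 and 39.1 RPKM after 1,25D, against 22.6, 32.3 and 42.3 RPKM after vehicle, with overlap (adjusted p = 0.949).

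Outside the mineral lists, several of the largest rises belonged to genes of cell structure, membrane and signaling. Pdlim2, an adaptor between actin and signaling proteins, had 7.07, 11.4 and 17.4 RPKM after 1,25D, against 0.973, 1.34 and 2.55 RPKM after vehicle (log2 fold change 2.71, SE 0.32, adjusted p = 1.51e-05). Ank3, which ties membrane proteins to the spectrin skeleton, had 17.3, 29.1 and 40.8 RPKM after 1,25D, against 5.07, 6.48 and 13.1 RPKM after vehicle (log2 fold change 1.82, SE 0.30, adjusted p = 0.00102). Rab11fip3, which steers recycling endosomes, had 13.6, 15.7 and 20.9 RPKM after 1,25D, against 3.19, 4.75 and 7.92 RPKM after vehicle (log2 fold change 1.68, SE 0.26, adjusted p = 0.000436). In these 3 genes no library crossed between the groups. Lrrc26, an auxiliary subunit of potassium channels, had 12, 13.6 and 15.8 RPKM after 1,25D, against 0.927, 3.76 and 5.14 RPKM after vehicle (log2 fold change 1.96, SE 0.28, adjusted p = 0.000217). Gpr151, an orphan receptor, had 3.29, 6.83 and 10.2 RPKM after 1,25D, against 1.43, 1.78 and 3.11 RPKM after vehicle (log2 fold change 1.46, SE 0.29, adjusted p = 0.00535). Krt7, a keratin of simple epithelia, had 15, 25.7 and 33.9 RPKM after 1,25D, against 6, 9.35 and 11.3 RPKM after vehicle (log2 fold change 1.46, SE 0.21, adjusted p = 0.00023). The calls of these 6 genes held throughout.

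Enzymes of lipid anchors and steroids were among them too. Pgap1, a deacylase of glycolipid anchors, had 11.2, 11.6 and 17.3 RPKM after 1,25D, against 2.27, 4.72 and 5.46 RPKM after vehicle (log2 fold change 1.47, SE 0.16, adjusted p = 5.67e-06). Its SE, which rests on the spread over all 24 libraries, was the smallest among the 40 largest rises. Gdpd2, a phosphodiesterase of glycerol lipids, had 5.97, 8.12 and 12.5 RPKM after 1,25D, against 0.748, 1.98 and 2.42 RPKM after vehicle (log2 fold change 1.95, SE 0.31, adjusted p = 0.000572). Hsd17b2, which inactivates estradiol and testosterone, had 9.29, 11.1 and 17.2 RPKM after 1,25D, against 2.8, 3.8 and 5.88 RPKM after vehicle (log2 fold change 1.47, SE 0.19, adjusted p = 6.59e-05). None of these groups overlapped and the calls held throughout, as did those of Tmem229b (log2 1.99, SE 0.32, adjusted p = 0.000631), Ccdc134 (log2 1.56, SE 0.20, adjusted p = 6.24e-05) and Aspa, which splits acetylaspartate (log2 1.50, SE 0.28, adjusted p = 0.00332). Gal3st2, a sulfotransferase of mucin sugars (log2 1.48, SE 0.32, adjusted p = 0.0123), and the protease inhibitor-like Wfdc16 (log2 1.90, SE 0.41, adjusted p = 0.0113) passed in each alternative except the pancreas covariate. Wfdc16 alone of these had overlapping groups, at 1.16, 3.47 and 6.98 RPKM after 1,25D, against 0.089, 0.398 and 1.22 RPKM after vehicle.

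Among the remaining large rises, Fgl2, a fibrinogen-like protein, had 69.3, 113 and 139.8 RPKM after 1,25D, against 29, 35.6 and 56.4 RPKM after vehicle (log2 fold change 1.47, SE 0.24, adjusted p = 0.000784). Ifi27l2b, a relative of interferon-induced genes, had 214, 341 and 388 RPKM after 1,25D, against 51.9, 101 and 149 RPKM after vehicle (log2 fold change 1.82, SE 0.33, adjusted p = 0.00247). The MHC class I-like genes H2-Q2 (182, 225 and 241 RPKM after 1,25D, against 41.8, 68.6 and 110.3 RPKM after vehicle; log2 fold change 1.70, SE 0.33, adjusted p = 0.00468) and H2-Bl (log2 1.55, SE 0.34, adjusted p = 0.0136) may share reads with near-identical copies, and the split between them is then uncertain. These 4 calls held throughout. Of 32 tested members of the interferon response list, 0 rose and 0 fell by limma, while the list was centred above 0 (10 higher and 0 lower at an unadjusted p under 0.05, median log2 fold change 0.34, 0.21 to 0.40 over the alternatives). Among all 20006 tested genes, 2393 had an unadjusted p under 0.05, in either direction.

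The naming rule left out many of the 116 rises that held throughout. Chosen after their values were seen, a few with known roles were Bach1, a heme-sensing repressor (log2 1.42, SE 0.17, adjusted p = 1.82e-05), and Alas1, which starts heme synthesis (log2 0.85, SE 0.16, adjusted p = 0.00435). Others were Ank, which exports ATP and pyrophosphate (log2 0.90, SE 0.17, adjusted p = 0.00444), Clcn5, a chloride proton exchanger of endosomes (log2 0.84, SE 0.17, adjusted p = 0.00535), and Hopx, a homeodomain-only regulator (log2 1.16, SE 0.17, adjusted p = 0.000259). Bach1 had 76.2, 90.6 and 107 RPKM after 1,25D, against 25.4, 31.2 and 48.6 RPKM after vehicle, and Ank had 20.4, 24.1 and 26.2 RPKM after 1,25D, against 8.12, 11.9 and 18.4 RPKM after vehicle. Hopx is a marker of reserve stem cells in the crypt and is also made by differentiated gut cells, and it had 39, 53.2 and 60.9 RPKM after 1,25D, against 18, 20.9 and 30.7 RPKM after vehicle.

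**Figure D2:**
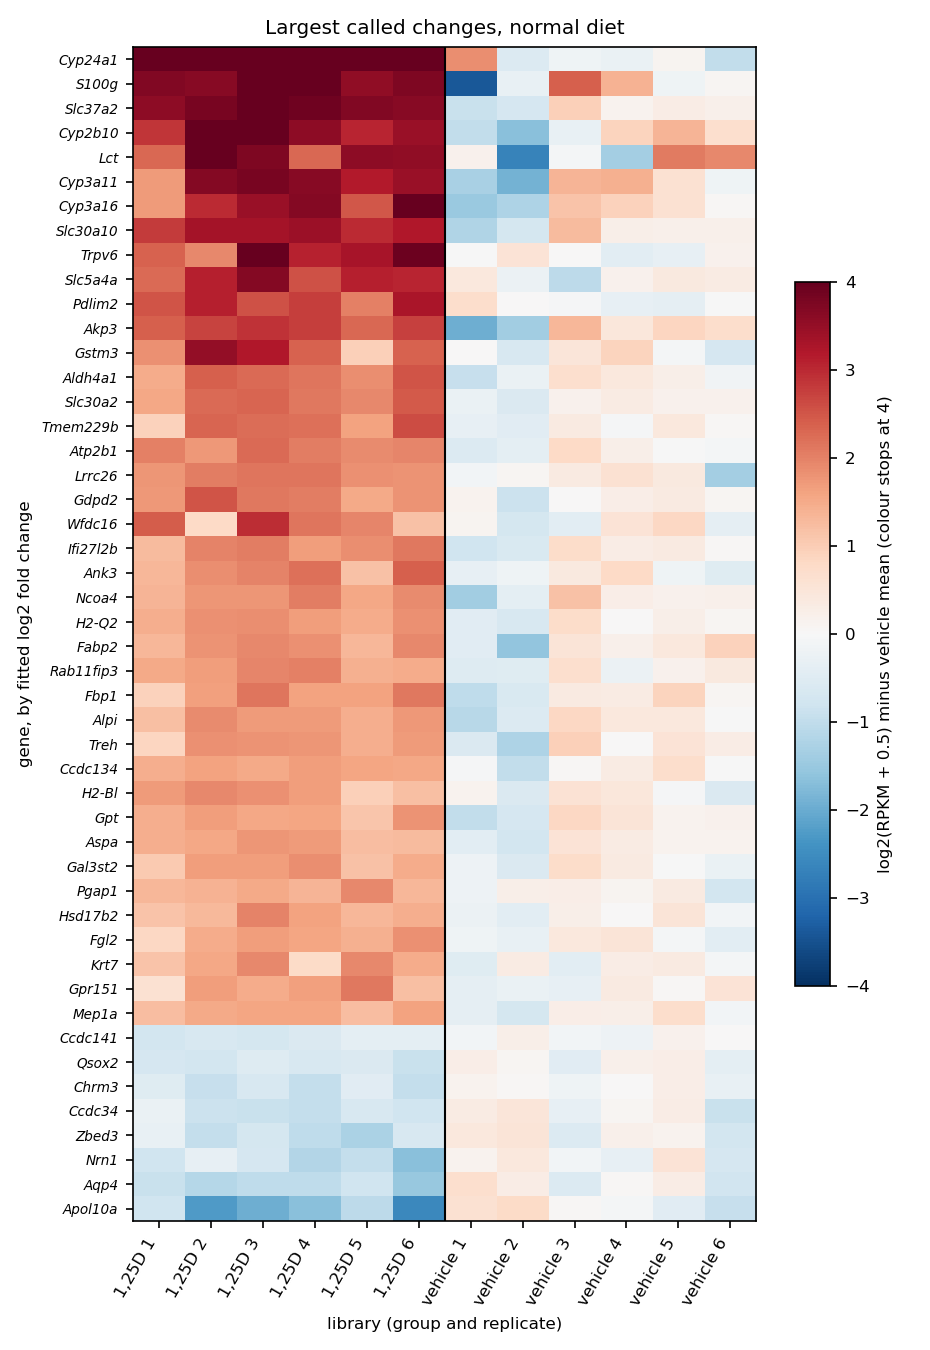
Heat map of the 40 named genes with the largest called rise and the 8 with the largest called fall, by library; colour is log2(RPKM + 0.5) minus the mean of the 6 vehicle libraries, and stops at 4. The 6 columns after 1,25D (left of the line) are red throughout the upper rows, and among the vehicle columns replicates 1 and 2 are blue for digestive and drug metabolism genes such as Akp3, Alpi and Cyp3a11.

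Drug metabolism genes gave 11 rises and 0 falls of 50 tested for phase I (median log2 fold change 0.60, 0.48 to 0.69 over the alternatives). They gave 7 and 0 of 44 for conjugation (median log2 fold change 0.51, 0.32 to 0.56 over the alternatives). They gave 6 and 0 of 32 for efflux pumps and sensing receptors (median log2 fold change 0.24, 0.13 to 0.28 over the alternatives). The percentage of all tested genes called higher was 1.78. Most markers of mature enterocytes moved the same way: 5 of 20 rose and 0 fell (median log2 fold change 0.95, 0.73 to 1.07 over the alternatives), and their summed level was 1.55% to 2.57% of summed RPKM after 1,25D and 1.06% to 2.36% after vehicle. The 5, Alpi, Fabp2, Rbp2, Cdh17 and Mep1a, are also counted in other lists here and are not separate from them. Of the 20, 18 lay above 0, while Reg3b (log2 -1.7) and Reg3g (log2 -2.1) lay below and were not called. The part of a larger share of enterocytes in these groups was not tested; more cells of a type and more RNA per cell cannot be told apart in whole tissue. The phase I count lies between 3 and 18 over the 25 alternatives, and the phase II count between 2 and 9.

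Cyp2b10, a cytochrome P450 of drug oxidation, had 34.4, 54.5 and 117 RPKM after 1,25D, against 1.01, 5.24 and 11.9 RPKM after vehicle (log2 fold change 3.61, SE 0.57, adjusted p = 0.000588, 12.2-fold), and its call held throughout. Cyp3a11, the main drug-oxidizing P450 of mouse intestine and liver, had 203, 734 and 864 RPKM after 1,25D, against 16.1, 74.5 and 166 RPKM after vehicle (log2 fold change 3.24, SE 0.70, adjusted p = 0.013). Cyp3a16, which may share reads with it, had 11.5, 34.5 and 102 RPKM after 1,25D, against 0.818, 4.26 and 7.74 RPKM after vehicle (log2 fold change 3.17, SE 0.77, adjusted p = 0.028). The groups of these 3 genes did not overlap. Ephx1, the microsomal epoxide hydrolase, had 10.9, 14.2 and 27.5 RPKM after 1,25D, against 3.54, 6.42 and 9.47 RPKM after vehicle (log2 fold change 1.27, SE 0.24, adjusted p = 0.00304) and held throughout. Por, which supplies the P450 enzymes with electrons, had 33.5, 64.7 and 91.9 RPKM after 1,25D, against 10.7, 24.2 and 33.6 RPKM after vehicle with some overlap (log2 fold change 1.43, SE 0.33, adjusted p = 0.0218). Adh1, an alcohol dehydrogenase, had 121, 149.7 and 182 RPKM after 1,25D, against 52, 73.3 and 111 RPKM after vehicle without overlap (log2 fold change 0.95, SE 0.22, adjusted p = 0.0187). Cyp3a11 was not called with the pancreas covariate. Calls were lost for Cyp3a16 without 1,25D replicate 2, 3, 4 or 6, or vehicle replicate 1 or 2 (adjusted p 0.0503 to 0.0849) and Por without 1,25D replicate 2, 3, 4 or 6, or vehicle replicate 1 (adjusted p 0.0516 to 0.0706). They were also lost for Adh1 without 1,25D replicate 3, or vehicle replicate 1 (adjusted p 0.0607 to 0.0633).

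For conjugation, Gstm3, a glutathione transferase, had 13.5, 36.1 and 81.6 RPKM after 1,25D, against 4.01, 6.52 and 12.9 RPKM after vehicle (log2 fold change 2.37, SE 0.38, adjusted p = 0.000631). Gstm6, a relative in the same gene cluster, had 9.6, 17.9 and 25.1 RPKM after 1,25D, against 3.15, 7.25 and 8.72 RPKM after vehicle (log2 fold change 1.36, SE 0.30, adjusted p = 0.0143). Sult1c2, a sulfotransferase, had 8.22, 9.11 and 13.5 RPKM after 1,25D, against 1.46, 4.06 and 5.76 RPKM after vehicle (log2 fold change 1.24, SE 0.25, adjusted p = 0.00727). The groups did not overlap for these 3 genes, and Gstm3 and Sult1c2 held throughout. Ugt2b34, one of the most abundant called genes, had 535, 747 and 875 RPKM after 1,25D, against 316, 459 and 536 RPKM after vehicle (log2 fold change 0.75, SE 0.19, adjusted p = 0.0312). Of the efflux pumps, Abcb1a, which returns drugs to the lumen as P-glycoprotein, had 41.2, 44.2 and 53.8 RPKM after 1,25D, against 15, 24.8 and 26.7 RPKM after vehicle (log2 fold change 1.07, SE 0.23, adjusted p = 0.0113). Its sister gene Abcb1b had 4.15, 4.69 and 4.99 RPKM after 1,25D, against 2.43, 2.78 and 3.15 RPKM after vehicle (log2 fold change 0.65, SE 0.13, adjusted p = 0.00659). Abcc2, the exporter of conjugates, had 62.6, 82.8 and 92.3 RPKM after 1,25D, against 16.8, 39.1 and 51.9 RPKM after vehicle (log2 fold change 1.28, SE 0.32, adjusted p = 0.0374). Nr1h3, the oxysterol receptor LXR alpha, had 10.5, 11.7 and 15 RPKM after 1,25D, against 5.17, 7.77 and 9.63 RPKM after vehicle (log2 fold change 0.65, SE 0.13, adjusted p = 0.00514). Abcb1a, Abcb1b and Nr1h3 passed in the 12 fits that left out 1 library; the first 2 were not called under quantile or median-of-ratios scaling, and Nr1h3 not with the pancreas covariate. Calls were lost for Gstm6 without 1,25D replicate 3 (adjusted p = 0.0517) and Abcc2 without 1,25D replicate 2, 3, 4, 5 or 6, or vehicle replicate 1 or 2 (adjusted p 0.0514 to 0.113). Ugt2b34 passed in 6 of the 12 fits and lost its call without 1,25D replicate 3, 4, 5 or 6, or vehicle replicate 1 or 2 (adjusted p 0.0658 to 0.0962).

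Sugar digestion contributed 5 rises and 0 falls of 32 tested genes (median log2 fold change 0.41, 0.33 to 0.50 over the alternatives). Lct, the brush border lactase, had 68.9, 166 and 238 RPKM after 1,25D, against 1.73, 14 and 58.8 RPKM after vehicle (log2 fold change 3.25, SE 0.70, adjusted p = 0.012, 9.53-fold). The vehicle libraries ran over a wide range, highest in replicates 5 and 6, and the groups came close without overlap. Slc5a4a, a glucose-sensing member of the sodium glucose transporter family, had 5.14, 9.29 and 14.3 RPKM after 1,25D, against 0.059, 0.891 and 1.04 RPKM after vehicle (log2 fold change 2.96, SE 0.42, adjusted p = 0.000217) and held throughout. Fbp1, an enzyme of gluconeogenesis, had 37.3, 61.9 and 87.7 RPKM after 1,25D, against 9.53, 22.7 and 36.9 RPKM after vehicle (log2 fold change 1.67, SE 0.31, adjusted p = 0.00304) and held throughout too, while its relative Fbp2 rose less (log2 0.50, SE 0.13, adjusted p = 0.0477). Treh, which splits trehalose, had 31.2, 57.7 and 61 RPKM after 1,25D, against 6.89, 19 and 33.4 RPKM after vehicle with overlap (log2 fold change 1.57, SE 0.41, adjusted p = 0.0462). The basolateral glucose transporter Slc2a2 had 244, 313 and 385 RPKM after 1,25D, against 81.4, 139.7 and 212 RPKM after vehicle and did not pass the test (log2 fold change 1.28, SE 0.35, adjusted p = 0.0558). Lct was not called with the pancreas covariate. Calls were lost for Fbp2 without 1,25D replicate 1, 3, 4, 5 or 6, or vehicle replicate 1, 2, 3 or 6 (adjusted p 0.0595 to 0.14) and Treh without 1,25D replicate 2, 3, 4, 5 or 6, or vehicle replicate 1, 2, 4 or 6 (adjusted p 0.0584 to 0.129).

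Peptide, amino acid and pyrimidine genes gave 7 rises and 0 falls of 41 tested (median log2 fold change 0.36, 0.27 to 0.43 over the alternatives). Mep1a, the brush border protease meprin, had 6.28, 8.01 and 8.27 RPKM after 1,25D, against 1.29, 2.54 and 4.2 RPKM after vehicle (log2 fold change 1.46, SE 0.24, adjusted p = 0.000857). Slc43a2, a carrier of large neutral amino acids, had 28.7, 33.5 and 48.9 RPKM after 1,25D, against 11.8, 15.6 and 17.3 RPKM after vehicle (log2 fold change 1.20, SE 0.21, adjusted p = 0.00182). Upb1, which completes pyrimidine breakdown, had 7.11, 9.27 and 13 RPKM after 1,25D, against 3.08, 3.73 and 5.26 RPKM after vehicle (log2 fold change 1.18, SE 0.21, adjusted p = 0.00169). These groups did not overlap and the calls held throughout. Dpyd, which begins pyrimidine breakdown (log2 1.08, SE 0.23, adjusted p = 0.0112), and the prolidase Pepd (log2 1.02, SE 0.22, adjusted p = 0.0114) passed in the 12 fits that left out 1 library, but not under median-of-ratios scaling or with the pancreas covariate. Aldh4a1, a mitochondrial enzyme of proline breakdown, had 13.4, 22.5 and 27.8 RPKM after 1,25D, against 2.13, 4.67 and 7.48 RPKM after vehicle (log2 fold change 2.11, SE 0.47, adjusted p = 0.016). Gpt, an alanine aminotransferase, had 48.9, 67.4 and 80.1 RPKM after 1,25D, against 11.2, 25.3 and 40.1 RPKM after vehicle (log2 fold change 1.53, SE 0.36, adjusted p = 0.024). The last calls were lost for Aldh4a1 without vehicle replicate 1 (adjusted p = 0.0518) and Gpt without 1,25D replicate 2, 3, 4 or 6, or vehicle replicate 1 or 2 (adjusted p 0.0524 to 0.0771).

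Lipid genes gave 5 rises and 0 falls of 52 tested (median log2 fold change 0.48, 0.33 to 0.54 over the alternatives), a count that ran from 1 to 17 over the alternatives. Fabp2, the intestinal fatty acid binding protein, had 704, 982 and 1066 RPKM after 1,25D, against 91.9, 346 and 524 RPKM after vehicle (log2 fold change 1.70, SE 0.37, adjusted p = 0.0142). Hsd17b4 and Ehhadh, bifunctional enzymes of peroxisomal oxidation, rose by 0.99 (SE 0.17) and 0.94 (SE 0.22) on the log2 scale, and the peroxisomal thiolase Acaa1b by 1.15 (SE 0.25). Hsd17b4 held throughout, and Fabp2 and Acaa1b passed in the 12 fits but not under median-of-ratios scaling or with the pancreas covariate. The Ehhadh call was lost without 1,25D replicate 3, 4 or 6, or vehicle replicate 1, 2 or 6 (adjusted p 0.052 to 0.0815). Fabp1, the liver type binding protein, had 489, 737 and 864 RPKM after 1,25D, against 201, 358 and 450.4 RPKM after vehicle and missed the threshold (log2 fold change 1.10, SE 0.30, adjusted p = 0.0631). Bile acid handling showed 0 rises and 0 falls of 12 tested (1 higher and 0 lower at an unadjusted p under 0.05, median log2 fold change 0.045, -0.055 to 0.24 over the alternatives).

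Among vitamin A genes, 3 of 23 rose and 0 fell (median log2 fold change 0.24, 0.16 to 0.35 over the alternatives). Rdh10, which makes retinal from retinol, had 24.7, 29.4 and 31.6 RPKM after 1,25D, against 10.5, 17.3 and 21.5 RPKM after vehicle (log2 fold change 0.82, SE 0.14, adjusted p = 0.00163). Retsat, which saturates retinol, had 39.5, 69 and 85.4 RPKM after 1,25D, against 17.9, 33.2 and 40.7 RPKM after vehicle with a narrow overlap (log2 fold change 1.08, SE 0.21, adjusted p = 0.00509). Both calls held throughout. Rbp2, the intestinal carrier of retinol, had 181, 244 and 331 RPKM after 1,25D, against 49.6, 120.5 and 160.5 RPKM after vehicle (log2 fold change 1.28, SE 0.32, adjusted p = 0.036), a call lost without 1,25D replicate 2, 3, 4 or 6, or vehicle replicate 1 or 2 (adjusted p 0.0748 to 0.106). In sterol synthesis 2 of 35 rose (5.71%, beside 1.78% of all tested genes) and 0 fell (median log2 fold change 0.35, 0.19 to 0.41 over the alternatives). Among them Sc4mol, a sterol methyl oxidase, had 94.2, 124 and 241 RPKM after 1,25D, against 42, 77.5 and 95.2 RPKM after vehicle (log2 fold change 1.06, SE 0.27, adjusted p = 0.0413). The Sc4mol call was lost without 1,25D replicate 3, 4, 5 or 6, or vehicle replicate 2, 3, 5 or 6 (adjusted p 0.0525 to 0.125).

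Brush border and cytoskeleton genes gave 6 rises and 0 falls of 28 tested (median log2 fold change 0.49, 0.32 to 0.57 over the alternatives). Actb, the cytoskeletal actin often used as a reference gene, had 1641, 1813 and 2210.0 RPKM after 1,25D, against 718, 935 and 1152 RPKM after vehicle (log2 fold change 0.97, SE 0.20, adjusted p = 0.00884). No library crossed and the call held throughout. Ezr, which links actin to the membrane of microvilli, had 187, 211 and 241 RPKM after 1,25D, against 87.7, 99.5 and 154 RPKM after vehicle (log2 fold change 0.98, SE 0.22, adjusted p = 0.0179). Myo5b, a motor for apical traffic, rose by 0.52 (SE 0.12). Calls were lost for Ezr without 1,25D replicate 3, or vehicle replicate 1 (adjusted p 0.0501 to 0.0522) and Myo5b without 1,25D replicate 3, 4 or 6, or vehicle replicate 1 (adjusted p 0.0526 to 0.0653). Other abundant genes that rose were Idh1, the cytosolic source of NADPH, with 271, 328 and 454 RPKM after 1,25D, against 94.1, 121 and 189.8 RPKM after vehicle (log2 fold change 1.41, SE 0.24, adjusted p = 0.0013), which held throughout. Cyb5b, a mitochondrial cytochrome, had 223, 254 and 277 RPKM after 1,25D, against 136, 162 and 211 RPKM after vehicle (log2 fold change 0.61, SE 0.15, adjusted p = 0.0304), and its call was lost without 1,25D replicate 3, 4, 5 or 6, or vehicle replicate 1, 2 or 6 (adjusted p 0.0524 to 0.0852).

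Of 36 transcription factors of the intestine, 2 rose (5.56%, beside 1.78% of all tested genes) and 0 fell (median log2 fold change 0.10, -0.078 to 0.17 over the alternatives). Pdx1 had 38.5, 49.1 and 58.8 RPKM after 1,25D, against 15.4, 21.7 and 33.6 RPKM after vehicle (log2 fold change 1.09, SE 0.18, adjusted p = 0.000708). Maf, a basic leucine zipper factor, had 40.7, 43.5 and 55 RPKM after 1,25D, against 15.2, 18.4 and 31.5 RPKM after vehicle (log2 fold change 1.20, SE 0.19, adjusted p = 0.000631). Both pairs of groups were apart, and both calls held throughout. Gata4, which sets proximal identity in the gut, had 21.7, 29.6 and 35.5 RPKM after 1,25D, against 12.6, 22.8 and 34.1 RPKM after vehicle and did not pass the test (log2 fold change 0.47, SE 0.19, adjusted p = 0.28). Pdx1 is also made in the pancreas, and the part of pancreas RNA in its values was not tested.

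Signaling genes changed in small numbers. Growth factor and hormone signaling had 3 rises (6.82%, beside 1.78% of all tested genes) and 0 falls of 44 tested (median log2 fold change 0.088, -0.023 to 0.13 over the alternatives). Bmp2, a morphogen of the villus and mesenchyme, had 6.47, 6.94 and 8.57 RPKM after 1,25D, against 3.67, 4.34 and 4.65 RPKM after vehicle (log2 fold change 0.73, SE 0.13, adjusted p = 0.00149) and held throughout. Vegfa, the vascular growth factor, had 38.2, 43.5 and 58.1 RPKM after 1,25D, against 18.7, 21.3 and 34 RPKM after vehicle (log2 fold change 0.97, SE 0.21, adjusted p = 0.0143) and passed in the 12 fits, but not under quantile normalization, with the pancreas covariate or without vehicle replicates 3 and 6. Smad7, which damps TGF-beta signaling, rose by 0.57 (SE 0.15), a call lost without 1,25D replicate 1, 2, 3, 4 or 5, or vehicle replicate 1, 2, 4 or 6 (adjusted p 0.0517 to 0.107). The EGF receptor ligands Areg (3.95, 6.58 and 8.6 RPKM after 1,25D, against 0.273, 1.05 and 3.96 RPKM after vehicle; adjusted p = 0.0701) and Ereg (3.17, 16.2 and 22.6 RPKM after 1,25D, against 3.4, 5.47 and 6.77 RPKM after vehicle; adjusted p = 0.0669) missed the threshold.

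Clock genes gave 3 rises and 0 falls of 20 tested (median log2 fold change 0.39, 0.24 to 0.49 over the alternatives): Per2, a repressor of the clock (log2 1.0, SE 0.26, adjusted p = 0.0392), Tef, an output activator (log2 0.68, SE 0.16, adjusted p = 0.0266), and Bhlhe40, a repressor (log2 0.59, SE 0.16, adjusted p = 0.0481). All 3 calls lay near the threshold and were lost when any of many libraries was left out. The Per2 call was lost without 1,25D replicate 1, 2, 3, 4, 5 or 6, or vehicle replicate 1, 2, 3 or 4 (adjusted p 0.0564 to 0.1). That of Tef was lost without 1,25D replicate 2, 3, 4 or 6, or vehicle replicate 1, 2 or 3 (adjusted p 0.0527 to 0.0787). That of Bhlhe40 was lost without 1,25D replicate 2, 3, 4, 5 or 6, or vehicle replicate 1, 2, 3, 4 or 6 (adjusted p 0.0742 to 0.123). Of 25 immediate early genes, 4% were called higher, beside 1.78% of all tested genes. The 1 that rose was Junb, an AP-1 subunit, with 16.7, 19.5 and 26.7 RPKM after 1,25D, against 5.71, 10.2 and 12 RPKM after vehicle (log2 fold change 1.03, SE 0.24, adjusted p = 0.0189), and 0 fell (median log2 fold change 0.15, 0.026 to 0.26 over the alternatives). Its call was lost without 1,25D replicate 6 (adjusted p = 0.0572). Fos, its partner, had 18.8, 25.2 and 32.2 RPKM after 1,25D, against 3.91, 9.58 and 19.1 RPKM after vehicle and did not pass (log2 fold change 1.39, SE 0.44, adjusted p = 0.123). The list of glucocorticoid and fasting genes had 1 rise of 20 (5%, beside 1.78% of all tested genes called higher). It was Cyp4a10, a fatty acid hydroxylase (log2 1.42, SE 0.33, adjusted p = 0.021), whose call was lost without 1,25D replicate 3, 4 or 6, or vehicle replicate 1 (adjusted p 0.0558 to 0.0653). Nuclear genes of oxidative phosphorylation had 1 rise of 36 (2.78%, beside 1.78% of all tested genes called higher), Ndufa1 of complex I (log2 0.74, SE 0.17, adjusted p = 0.0206). That call was lost without 1,25D replicate 3, 5 or 6, or vehicle replicate 1 or 2 (adjusted p 0.0501 to 0.0684), and the list had 0 calls under quantile normalization and with the pancreas covariate.

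Falls were few. Chrm3, the muscarinic acetylcholine receptor of glands and smooth muscle, had 1.2, 1.41 and 1.9 RPKM after 1,25D, against 2.16, 2.86 and 3.43 RPKM after vehicle (log2 fold change -0.73, SE 0.14, adjusted p = 0.00512). Aqp4 had 4.28, 6.23 and 7.28 RPKM after 1,25D, against 7.45, 14.9 and 21.2 RPKM after vehicle (log2 fold change -1.06, SE 0.23, adjusted p = 0.0137). Every 1,25D library lay below every vehicle library for both, and these are the 2 falls that held throughout. Qsox2, which forms disulfide bonds in secreted proteins, had 4.43, 5.39 and 5.95 RPKM after 1,25D, against 6.19, 9.69 and 10.7 RPKM after vehicle (log2 fold change -0.67, SE 0.15, adjusted p = 0.0162). Ccdc141, a coiled-coil protein, had 0.832, 0.96 and 1.2 RPKM after 1,25D, against 1.43, 1.66 and 2.11 RPKM after vehicle (log2 fold change -0.57, SE 0.15, adjusted p = 0.0392), also with no overlap. Apol10a, an apolipoprotein L, had 3.11, 5.73 and 11.9 RPKM after 1,25D, against 10.9, 21 and 36.5 RPKM after vehicle (log2 fold change -1.71, SE 0.38, adjusted p = 0.0164), the largest fall and one with overlap. Nrn1, the neuronal protein neuritin (log2 -0.94, SE 0.23, adjusted p = 0.0312), Zbed3, a partner of axin in Wnt signaling (log2 -0.81, SE 0.20, adjusted p = 0.0351), and Ccdc34 (log2 -0.74, SE 0.19, adjusted p = 0.036) overlapped too. The remaining 3 of the 11 were Pmch, the precursor of a neuropeptide, and the predicted genes Gm8979 and Gm8989. Calls were lost for Qsox2 without 1,25D replicate 6, or vehicle replicate 1 (adjusted p 0.05 to 0.0517), Ccdc141 without 1,25D replicate 1, 2, 3, 4, 5 or 6, or vehicle replicate 1, 2 or 5 (adjusted p 0.0507 to 0.108) and Apol10a without 1,25D replicate 6, or vehicle replicate 1 or 2 (adjusted p 0.0501 to 0.0527). The falls of the others were lost for Nrn1 without 1,25D replicate 4, 5 or 6, or vehicle replicate 1, 2 or 5 (adjusted p 0.0618 to 0.0967), Zbed3 without 1,25D replicate 2, 3, 4, 5 or 6, or vehicle replicate 1, 2, 4 or 5 (adjusted p 0.0529 to 0.101) and Ccdc34 without 1,25D replicate 2, 3, 4, 5 or 6, or vehicle replicate 1, 2, 4 or 5 (adjusted p 0.0578 to 0.104).

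Marker lists of other cell types held few calls. Beside them, 1.78% of all tested genes were called higher and 0.055% lower. At an unadjusted p under 0.05 by limma there were 2393 of the 20006, in either direction. By limma, Paneth cell markers had 0 calls of 18 tested (0 higher and 6 lower at an unadjusted p under 0.05, median log2 fold change -0.52, -1.0 to -0.35 over the alternatives), with a summed level of 1.43% to 3.36% of summed RPKM after 1,25D and 1.45% to 5.61% after vehicle. On that list Nupr1 (log2 -1.77, adjusted p = 0.0669) and Pnliprp2 (log2 -1.76, adjusted p = 0.0999) fell most. The part of pancreas RNA in their values was not tested. Goblet cell markers had 0 calls of 13 (3 higher and 1 lower at an unadjusted p under 0.05, median log2 fold change 0.18, -0.11 to 0.25 over the alternatives; 0.333% to 0.476% of summed RPKM after 1,25D and 0.291% to 0.412% after vehicle). Crypt stem cell markers had 1 rise, Soat1, which esterifies cholesterol, and 1 fall, Aqp4, of 18 (median log2 fold change -0.27, -0.49 to -0.14 over the alternatives). Lgr5, which defines these cells, had 0.768, 0.978 and 1.16 RPKM after 1,25D, against 1.33, 1.64 and 3.13 RPKM after vehicle without overlap and did not pass the test (log2 fold change -0.73, SE 0.22, adjusted p = 0.0903). Enteroendocrine markers had 0 calls of 22 (6 higher and 1 lower at an unadjusted p under 0.05, median log2 fold change 0.13, 0.059 to 0.29 over the alternatives). Tuft cell markers had 0 of 10 (0 higher and 0 lower at an unadjusted p under 0.05, median log2 fold change 0.21, 0.079 to 0.29 over the alternatives). Brunner's gland and gastric markers had 0 of 9 (1 higher and 1 lower at an unadjusted p under 0.05, median log2 fold change 0.49, 0.34 to 1.28 over the alternatives).

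Of the tissue around the epithelium, smooth muscle markers had 0 of 18 by limma (0 higher and 1 lower at an unadjusted p under 0.05, median log2 fold change -0.40, -0.54 to -0.15 over the alternatives). Neuron and glia markers had 1 fall of 14, Chrm3, which is also a receptor of glands and smooth muscle (median log2 fold change of the list -0.043, -0.14 to 0.12 over the alternatives). Fibroblast and endothelial markers had 0 of 20 (0 higher and 1 lower at an unadjusted p under 0.05, median log2 fold change -0.14, -0.33 to -0.035 over the alternatives). T cell markers had 0 of 16 (7 higher and 0 lower at an unadjusted p under 0.05, beside 2393 of all 20006 tested genes in either direction, median log2 fold change 0.35, 0.26 to 0.69 over the alternatives). B cell, plasma cell and myeloid markers had 1 rise of 21 (4.76%, beside 1.78% of all tested genes). It was the proteoglycan Sdc1, which epithelia also make (median log2 fold change of the list 0.11, -0.028 to 0.29 over the alternatives). Blood cell markers had 0 of 4 (0 higher and 0 lower at an unadjusted p under 0.05, median log2 fold change 0.17, 0.049 to 0.32 over the alternatives). Islet, liver and adipose markers had 0 of 8 (0 higher and 1 lower at an unadjusted p under 0.05, median log2 fold change -0.46, -0.66 to -0.28 over the alternatives). Cell cycle and replication genes had 0 of 39 (2 higher and 1 lower at an unadjusted p under 0.05, median log2 fold change 0.026, -0.20 to 0.11 over the alternatives), and up to 9 of them were called lower under an alternative.

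**Figure D3:**
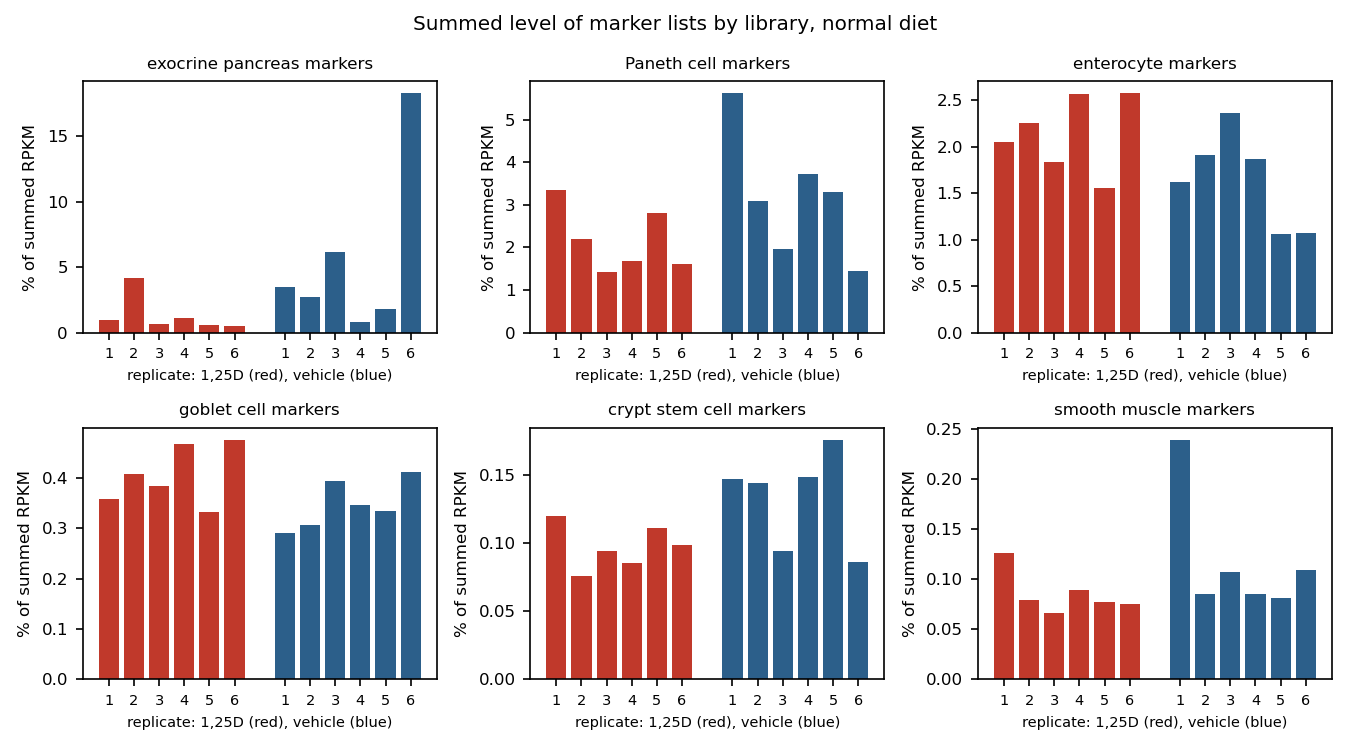
Summed RPKM of 6 marker lists as a percentage of all summed RPKM (each axis has its own range) in the 6 libraries after 1,25D (red, left) and the 6 after vehicle (blue, right), numbered by replicate. Exocrine pancreas markers reach 18.3% in vehicle replicate 6 and at most 4.17% after 1,25D, while the enterocyte shares of the groups overlap.

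Exocrine pancreas markers were lower in the 1,25D libraries, with a list median of -3.30 on the log2 scale (-4.02 to 0.11 over the alternatives that kept these genes). The fit with the pancreas covariate adjusts these markers for their own mean level, so its value for them is no separate check. Of 30 tested, 0 were called in either direction by limma, with 0 higher and 25 lower at an unadjusted p under 0.05. Prss1, a trypsinogen, had 0.413, 3.14 and 48 RPKM after 1,25D, against 13.3, 93.6 and 305 RPKM after vehicle (log2 fold change -3.92, SE 1.11, adjusted p = 0.0709). Amy2a5, an amylase whose near-identical copies may share its reads, had 10.03, 904 and 9199.9 RPKM after 1,25D, against 1058, 7975 and 52789 RPKM after vehicle. Both were above 0 in all 12 libraries. Between 0 and 3 of the 30 were called lower over the alternatives. Without vehicle replicate 6, 3 calcium genes, 5 zinc and manganese genes, 5 phosphate genes, 9 phase I genes, 3 sugar genes and 4 lipid genes were higher. With the pancreas score as a covariate these counts were 3, 4, 4, 3, 2 and 1. Without vehicle replicate 6, higher calls numbered 2 for iron and copper, 1 for magnesium to water transport and 2 for clock genes. They numbered 1 for immediate early, 1 for glucocorticoid and fasting, 6 for brush border and 6 for efflux and receptor genes. With the covariate these 7 counts were 0, 0, 0, 0, 0, 2 and 2.

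**Figure D4:**
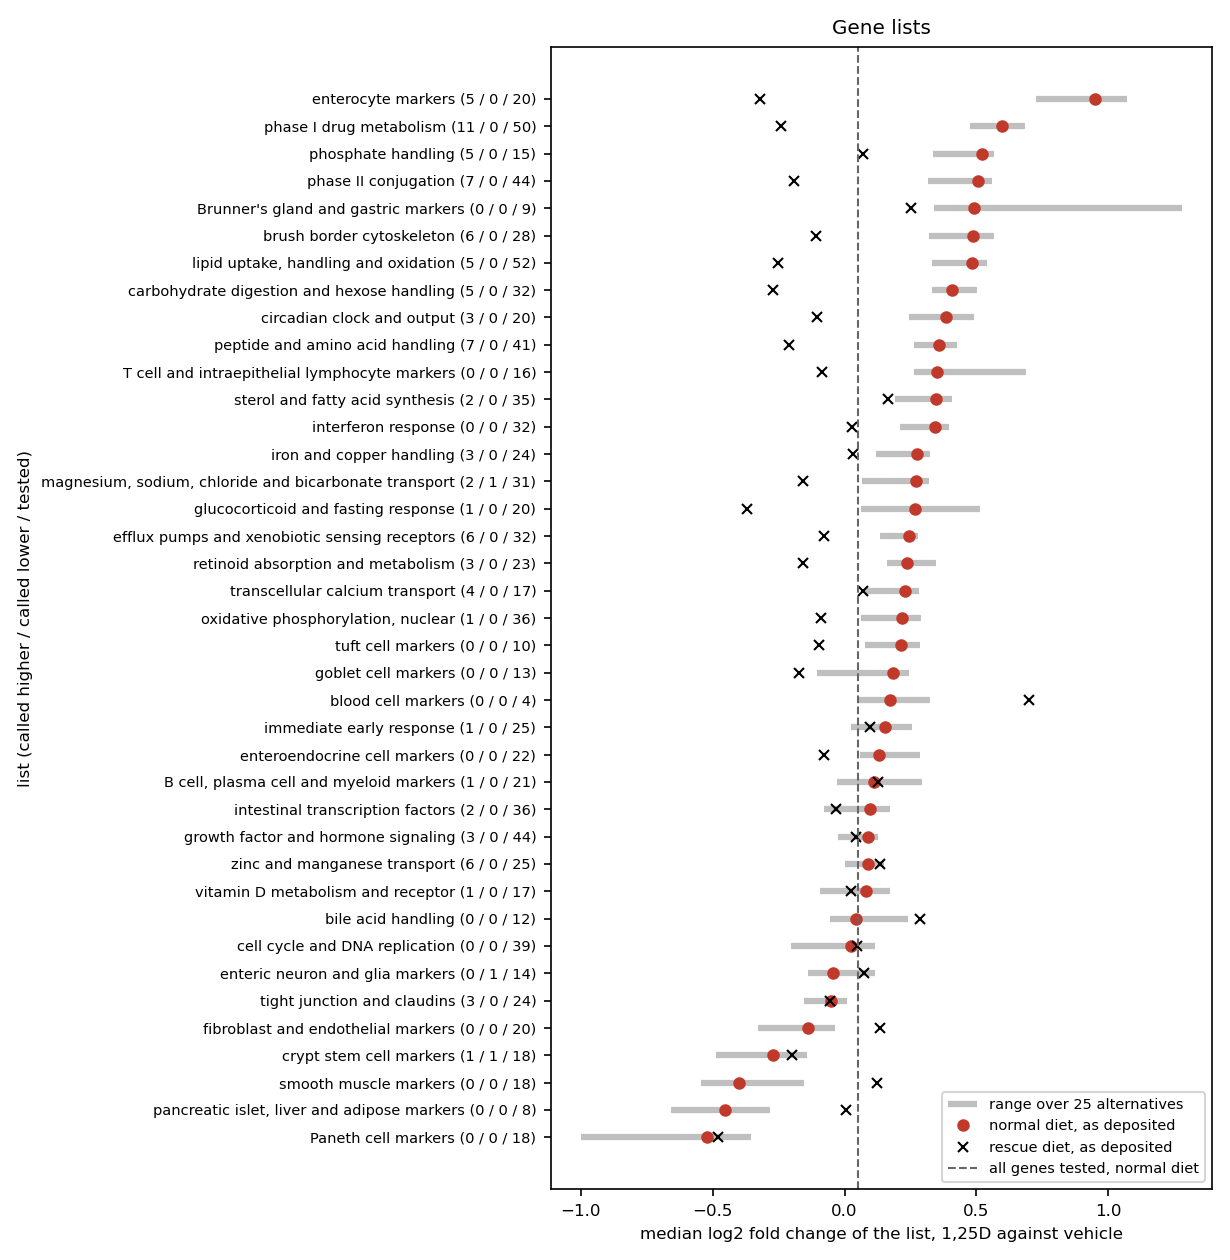
Median log2 fold change, 1,25D against vehicle, of 39 gene lists on the normal diet (red), with the range over the 25 alternatives (grey), beside the rescue diet (black crosses) and the median of all tested genes on the normal diet (dashed, 0.049); counts in brackets are called higher, called lower and tested, and the exocrine pancreas list is not drawn. Enterocyte markers stand highest at 0.95 and Paneth cell markers lowest at -0.52.

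The same injection on the rescue diet allows the responses on the 2 diets to be compared. The test of the difference between the effects on the 2 diets called 1 gene of 20006 (0.005%) by limma, with 1371 at an unadjusted p under 0.05. That gene was Upb1: its log2 fold change was 1.18 (SE 0.21) on the normal diet and -0.68 (SE 0.21) on the rescue diet (difference 1.86, SE 0.29, adjusted p = 0.024). The call on the difference was lost in 6 of the 12 fits that left out 1 library, without vehicle replicates 1, 3 or 4 or without 1,25D replicates 4, 5 or 6, and also under median-of-ratios scaling, the replicate block and each of the 3 pancreas settings.

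Effects on both diets stand side by side for the genes of the hormone and of calcium. The log2 fold change of Cyp24a1 was 9.14 (SE 0.44) on the normal diet and 9.0 (SE 0.44) on the rescue diet (difference 0.14, SE 0.62, adjusted p = 0.989). Trpv6 changed by 3.13 (SE 0.45) on the normal diet and 2.17 (SE 0.45) on the rescue diet (difference 0.96, SE 0.64, adjusted p = 0.904). Atp2b1 changed by 1.99 (SE 0.22) on the normal diet and 1.07 (SE 0.22) on the rescue diet (difference 0.92, SE 0.32, adjusted p = 0.417). For S100g the changes were 3.83 (SE 0.60) on the normal diet and 3.04 (SE 0.60) on the rescue diet (difference 0.80, SE 0.85, adjusted p = 0.961), and for Pdlim2 they were 2.71 (SE 0.32) on the normal diet and 2.46 (SE 0.32) on the rescue diet (difference 0.25, SE 0.45, adjusted p = 0.97). The point estimates lay further apart for Lct, at 3.25 (SE 0.70) on the normal diet and -0.50 (SE 0.70) on the rescue diet (difference 3.76, SE 0.99, adjusted p = 0.261). So they did for Slc5a4a, at 2.96 (SE 0.42) on the normal diet and 0.075 (SE 0.42) on the rescue diet (difference 2.88, SE 0.60, adjusted p = 0.133), and for Fabp2, at 1.70 (SE 0.37) on the normal diet and -0.48 (SE 0.37) on the rescue diet (difference 2.17, SE 0.53, adjusted p = 0.187). None of these 8 differences passed the test. Enterocyte markers had a list median of 0.95 on the normal diet and -0.32 on the rescue diet. For phase I genes the list medians were 0.60 (normal diet) and -0.24 (rescue diet). They were 0.48 (normal diet) and -0.25 (rescue diet) for lipid genes, and 0.41 (normal diet) and -0.27 (rescue diet) for sugar genes. The median of all tested genes was 0.049 on the normal diet and 0.06 on the rescue diet. Differences between the diets in list medians were not tested.

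**Figure D5:**
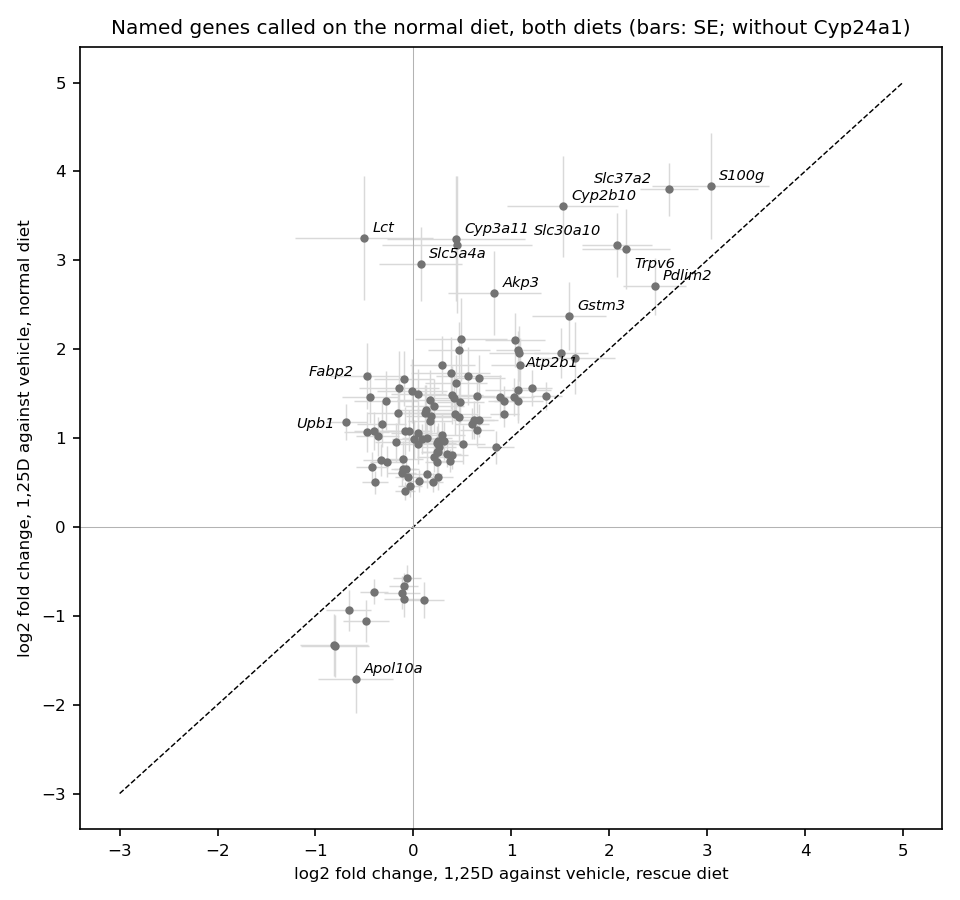
Log2 fold change of 1,25D against vehicle on the normal diet (vertical axis) and on the rescue diet (horizontal axis) for 110 named genes called on the normal diet, with SE bars and a dashed line of equal change; Cyp24a1, at 9.14 and 9.0, lies outside the frame. Being called on the normal diet, 99 of the genes lie above the line, with S100g and Pdlim2 close to it and Lct and Slc5a4a far above.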

How the data were processed

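RNA from mouse duodenum was sequenced after ribosomal RNA removal (RiboMinus) with directional ScriptSeq libraries, per the labels' protocols. The submitters' processing notes name TopHat and mm9, and how genes were quantified is not given in the sources used here. In these files the authors deposited RPKM values per library, per the file headers, and these were used as deposited. Each table held 30795 entries for 25410 symbols; entries sharing a symbol (8855 entries, 3470 symbols) were added up, which merges isoforms. Reads of near-identical copies and overlapping genes cannot be told apart either.

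limma 3.58.1 in R 4.3.3 was run on log2(RPKM + 0.5), with an intensity trend, for 20006 genes with RPKM 0.5 or more in at least 6 of 24 libraries, with 1 mean per group, 20 residual degrees of freedom and Benjamini-Hochberg adjustment over all of them (two-sided, threshold 0.05). Fold changes are on that log2 scale and understate changes of low genes. Tables and figures used Python 3.11.15, numpy 2.4.6, pandas 2.3.3 and matplotlib 3.10.9. The fit was tested on simulated data. Of 1092 positions in 40 gene lists, 1062 were in the files and 995 were tested; promoter sequences came from RefSeq (GRCm38.p6) and were matched by symbol. The rule for naming genes took Cyp27b1, Cyp24a1, Vdr, Trpv6, S100g and Atp2b1; the 40 largest called rises and 15 largest called falls that averaged 1 RPKM or more in their higher group; the 15 most abundant called genes; and, per list, up to 6 members with the lowest p. Others, such as Rxra, Slc20a1 and Amy2a5, were chosen after their values were seen. A few genes within the rule are not reported here. The members and lists were chosen with earlier results of these data known. Library replicates were compared over log2 values (correlations 0.901 to 0.985), and no 2 libraries were identical. Alternatives covered filter, pseudocount, scaling, weights, replicate block, the libraries in the fit, rows of a symbol, leaving out each library, and pancreas genes.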

Additional observations from a re-analysis of the deposited data

Results flagged for a closer look

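The log2 fold change of Upb1 after 1,25D was 1.18 on the normal diet and -0.68 on the rescue diet. The difference was 1.86, with an adjusted p = 0.024 by limma for the difference itself. It was the only gene of 20006 for which that test passed, and the call was lost in 6 of the 12 fits that left out 1 library.

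A library standing far from the other 5 of its group was found 16 times in 272 groups of 6 libraries (136 named genes in both groups), by a gap to the nearest library above Dixon's critical value. Chance alone sets apart about 1 in 20 groups, a rate close to the one found here. The groups share libraries and are not independent. After 1,25D, replicate 1 was low for Cyp3a11 at 203 RPKM, Ereg at 3.17 RPKM, Pepd at 40.1 RPKM and Treh at 31.2 RPKM. Replicate 3 of that group was high for Ephx1 at 27.5 RPKM, replicate 5 for Pgap1 at 17.3 RPKM, and replicate 6 for Alas1 at 44.8 RPKM. After vehicle, replicate 6 was low for Calm2 at 110.1 RPKM, Junb at 5.71 RPKM, Lrrc26 at 0.927 RPKM, Myo5b at 19.9 RPKM and Slc30a1 at 10.4 RPKM. Replicate 1 of that group was high for Pdlim2 at 2.55 RPKM and low for Sult1c2 at 1.46 RPKM, replicate 2 was low for Gdpd2 at 0.748 RPKM, and replicate 4 was high for Vegfa at 33.96 RPKM. Vehicle replicate 6, which accounts for 5 of the 16, is also the library with 18.3% of summed RPKM in exocrine pancreas genes; the part of those genes in these values was not tested.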

How the results depend on the processing

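The number of rises was within 1.5 times of 357 under the filter, pseudocount, weight and row settings. It was 231 under quantile normalization, 208 under median-of-ratios scaling, 220 with pancreas genes removed and libraries rescaled, and 127 with the pancreas covariate. The number of falls was 93, 68, 42 and 10 in the same order, 99 with library weights and 311 without vehicle replicates 3 and 6, where the median of all genes moved from 0.049 to -0.064. The difference between the diets, with 1 call, had 2 under quantile normalization and 32 with library weights. It had 0 under median-of-ratios scaling, with the pancreas covariate, without vehicle replicates 3 and 6, and with pancreas genes removed. The cause of these shifts was not tested, and the 3 pancreas settings were chosen after seeing the data. Leaving out 1 library gave 195 to 398 rises, 2 to 117 falls and 0 to 7 calls for the difference. A fit of the 12 normal diet libraries alone called 419 higher and 14 lower. Of these 433 calls, 286 were among the 368 made with all 24 libraries in the fit. With the replicate number as a block there were 262 rises, 9 falls and 0 calls for the difference. Same-numbered libraries deviated together with correlations of 0.251, 0.179, 0.00373, 0.129, -0.00849 and 0.0528, and 1 of 6 matched best with its own number, so the numbers were not taken as a pairing.

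Of the 111 named genes that were called, 0 reversed in any setting, 70 were called in every fit that left out 1 library and 54 under all alternatives. Reversals concerned 6 genes that had not been called. Vdr, which ran from -0.0092 to 0.27 over the fits that left out 1 library, went to -0.037 under quantile normalization, -0.035 with library weights, -0.0092 without vehicle replicate 1 and -0.016 with the pancreas covariate. Rxra went to -0.087 under quantile normalization, -0.028 under median-of-ratios scaling, -0.052 with weights, -0.078 without vehicle replicates 3 and 6 and -0.022 with pancreas genes removed, and ran from -0.062 (without vehicle replicate 6) to 0.12 over the fits that left out 1 library. Ncoa3 went to -0.048 without vehicle replicates 3 and 6, Slc20a1 to -0.064 under quantile normalization, Trpv5 to 0.039 without vehicle replicate 2 (-0.21 at its lowest over those fits) and Amy2a5 to 0.24 with the pancreas covariate. The score behind that covariate is made from exocrine pancreas genes, so this last value is no separate check of Amy2a5. Absolute depth is unknown, so no counting error can be given for genes with low RPKM.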

Other observations

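Without vehicle replicate 6, 117 genes were called lower after 1,25D, against 11 with it. A few of them are given here, chosen after their values were seen. Reg3a, an antimicrobial lectin, and Clca2, a membrane protein of the chloride channel regulator family, differed by -1.95 (SE 0.46, adjusted p = 0.0286) and -1.65 (SE 0.33, adjusted p = 0.00792) on the log2 scale. For the defensin Defa5 the difference was -1.30 (SE 0.34, adjusted p = 0.0496), and near-identical defensin genes may share its reads. These values leave out the library with the largest share of exocrine pancreas genes, a choice made after seeing the data, and the part of those genes in the 117 calls was not tested.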
